A study of Caenorhabditis elegans with 3 samples.

Results

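Major sperm proteins (MSPs) are the most abundant proteins of nematode sperm. They assemble into the filaments that move the crawling, flagellum-free sperm cell, and MSP released from sperm is also the signal that makes oocytes mature and the gonadal sheath contract. Their genes are expressed while spermatocytes form. A Caenorhabditis elegans hermaphrodite first makes sperm and then switches to oocytes for its adult life, so the adult gonad holds stored sperm beside a germline that is making oocytes.

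The members described here are protein-coding genes whose deposited symbol is msp, ssp, ssq, spch, nspd or msd followed by a number. This rule found 64 of 20362 protein-coding genes, and 46739 genes were listed in all. The 31 msp genes encode MSP itself. The 4 msd genes encode small proteins built from an MSP domain, and the 12 ssp genes (sperm-specific family, class P) encode small relatives of it. The 4 ssq genes (class Q) are a further sperm-specific family. The 3 spch genes encode basic proteins of sperm chromatin, and the 10 nspd genes encode short nematode-specific peptides whose function is less well known. A further 6 genes with such symbols are pseudogenes and were not members.

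The 3 libraries came from dissected germlines of N2 worms, the wild-type laboratory strain, and form 1 group with no treatment or mutant. The labels give neither the age nor the sex of the worms. They leave unsaid whether each numbered sample was taken from its own animals or culture, and the spread between samples may be technical. Counts came to between 14523486 and 16656171 per library, and a level of 1 CPM (counts scaled to a common library total) stood for 14.5 to 16.7 reads. With a single group there was no contrast to test, and all values below describe these libraries. All 23 genes of an oocyte and eggshell list had at least 1 CPM in every library.

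Many of these genes, above all within the msp family, are near-identical copies of each other. How reads that match several copies were counted is not given in the sources used here, so a value for a single copy is uncertain. A sum over a family does not depend on how reads were split among its copies, but it would be too low if such reads were left out and too high if they were counted at each copy. Where counts of 2 libraries are compared, the 95% intervals given are exact binomial (Clopper-Pearson) intervals. They cover counting error only and take each read as an independent draw. PCR copies of a molecule were not told apart by molecular identifiers, so the intervals may be too narrow even for that error. In these bulk samples, fewer sperm cells and less RNA per sperm cell cannot be told apart.

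Sperm family transcripts took 3.72% of all counts in replicate 1, 0.45% in replicate 2 and 1.24% in replicate 3. The mean was 1.8% ± 1.71 (SD, n = 3), so the spread between libraries was nearly as large as the mean, and without replicate 1 the mean was 0.846%. In replicate 1, 24 of the 200 most abundant protein-coding genes were members, 21 of them msp genes and 3 ssq genes. In replicate 3 these were 4 genes, all of the msp family, and in replicate 2 there were 0.

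A member was called detected at 1 CPM or more in every library. This held for 56 of 64 members (87.5%), against 40.2% of all protein-coding genes. The median over members of mean log2(CPM + 1) was 6.99, with an SD of the 3 library medians of 1.52, against 0.66 and an SD of 0.13 for all protein-coding genes. The library medians of the members were 8.41, 5.38 and 7.03 in replicates 1, 2 and 3.

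**Figure D1:**
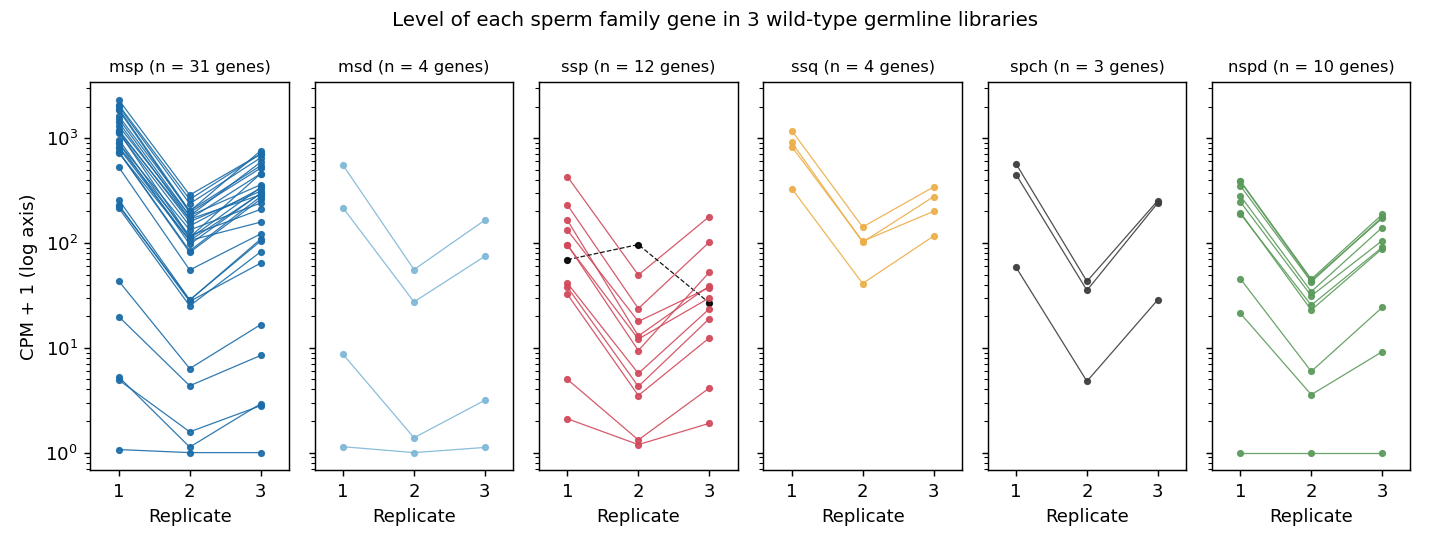
Level of each member in the 3 libraries, by family, as CPM + 1 on a log axis; each line joins the 3 values of a gene and carries no order in time. Nearly every line has its lowest point in replicate 2 and its highest in replicate 1, with the dashed line of ssp-37 as the exception.

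The msp genes made up 77.1%, 77.4% and 74.3% of all member counts in replicates 1, 2 and 3. The highest was msp-59 (WBGene00003452, chromosome IV, 5312728 to 5313111, WBcel235), with 2311 CPM in replicate 1, 285.6 CPM in replicate 2 and 703.6 CPM in replicate 3. Its rank among protein-coding genes was 35, 458 and 171 in the same libraries. The next was msp-152 (WBGene00003470, chromosome II, 4933027 to 4933410), with 2066, 259.1 and 704.4 CPM. Within replicates 1 and 2 msp-59 was above msp-152, and within replicate 3 their levels were nearly equal.

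Next in mean level, msp-31 had 2003, 235.3 and 648.2 CPM and msp-40 had 1908, 199.4 and 756.8 CPM, so that msp-40 was above msp-59 in replicate 3. Their means were 962.1 ± 924.6 and 954.6 ± 871.1 CPM (SD, n = 3), with a spread that both genes shared across the libraries. Within libraries, msp-31 was above msp-40 in replicates 1 and 2 and below it in replicate 3. Contrasts between libraries were ranked as ratios of CPM + 1 among msp genes with a mean of at least 10 CPM. The largest was found for msp-38, at 1147, 112.3 and 456.6 CPM, and the second largest for msp-64, at 526.2, 54.2 and 120.9 CPM. Both were highest in replicate 1 and lowest in replicate 2.

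Of the 31 msp genes, 28 share an annotated exon length of 384 bases in a single exon, and all 28 were detected. These genes ranged from 9.86 CPM for msp-63 to 1100 CPM for msp-59 in the mean over libraries although their annotated lengths are equal. The other 3 are shorter in the annotation and were hardly covered. Of these, msp-74 had 4.27, 0.128 and 1.92 CPM, msp-58 had 3.92, 0.578 and 1.8 CPM, and msp-32 had 1 count in replicate 1 and 0 in the others. None of these 3 was detected.

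The msd family was uneven. The highest was msd-4 (WBGene00016447, chromosome III, 4868414 to 4868743), with 548.9, 54.7 and 164.2 CPM, and msd-2 followed with 214.4, 26.4 and 73.7 CPM. In contrast, msd-3 had 7.64, 0.385 and 2.16 CPM, and msd-1 had 2, 0 and 2 counts. The Ensembl annotation gives both msd-1 and msd-3 the symbol msd-1, while RefSeq keeps them apart, and the deposited symbols are used here. In the Ensembl annotation, the single exon of msd-2 lies wholly within exons of F44D12.16 on the same strand. That gene shares 330 bases with msd-2 and had 11, 0 and 4 counts. The annotation used for counting is not given, so whether this overlap bears on the counts is not known.

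Of the 12 ssp genes, 10 were detected. They were led by ssp-10 (428.1, 48.4 and 177.3 CPM) and ssp-16 (228.9, 22.7 and 100.6 CPM). Among ssp genes with a mean of at least 10 CPM, ssp-19 and ssp-35 had the widest contrasts between libraries as ratios of CPM + 1. Their values were 163.3, 11.9 and 37.8 CPM and 95, 8.42 and 51.4 CPM, again highest in replicate 1. The lowest members were ssp-36 (3.99, 0.321 and 3.12 CPM) and ssp-32 (1.1, 0.193 and 0.901 CPM), which were not detected. The remaining detected genes other than ssp-37 had means between 15.1 and 61.5 CPM. Among them, ssp-11 carries the symbol ssp-9 in the Ensembl annotation, as does ssp-9 itself.

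A different pattern was found for ssp-37 (WBGene00012211, chromosome I, 12561040 to 12561560), with 68.2 CPM in replicate 1, 95.5 CPM in replicate 2 and 25.8 CPM in replicate 3. It was the sole member of at least 1 CPM in the mean that was highest in replicate 2 and lowest in replicate 3. Its ratio of replicate 1 to replicate 2 was 0.714 (95% interval 0.658 to 0.775), below 1, where the lowest such ratio of any other member of that level was 5.63, for msp-63. No other annotated gene overlapped it. It passed from rank 2407 in replicate 1 to rank 1685 in replicate 2 among protein-coding genes, while ssp-10 passed from rank 316 to rank 3173.

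All 4 ssq genes were detected at high levels. The values were 1177, 140.9 and 340.5 CPM for ssq-4, 907.6, 100.7 and 274.7 CPM for ssq-1, and 828.7, 102.9 and 199 CPM for ssq-2. The lowest, ssq-3, had 329.3, 40 and 115.2 CPM. The gene order was the same in replicates 1 and 3, and in replicate 2 ssq-1 and ssq-2 lay close together. Exons of ssq-4 share 651 bases with those of T28H11.7 on the opposite strand, which had 596, 50 and 174 counts. Whether strand was used in counting is not given, so reads of this pair may not be told apart.

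The 3 spch genes, whose products pack the DNA of sperm, had the highest median ratio of replicate 1 to replicate 2 of the 6 families. Their values were 567.1, 42 and 252.6 CPM for spch-1, 448.4, 34.3 and 240.2 CPM for spch-3, and 57.6, 3.79 and 27.7 CPM for spch-2. The ratio of replicate 1 to replicate 2 was 13.5 (12.5 to 14.6) for spch-1 and 13.1 (12 to 14.3) for spch-3, above the interval of 7.84 to 8.35 for msp-59. Ratios of this size were not particular to spch genes. They were also found for ssp-19, at 13.7 (11.8 to 15.9), and ssp-33, at 12.5 (9.01 to 17.8). The family made up 2.88%, 1.78% and 4.19% of member counts, highest in replicate 3.

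Of the 10 nspd genes, 9 were detected, with means from 10.3 CPM for nspd-9 to 206.5 CPM for nspd-2. The highest were nspd-2 (389.6, 44.1 and 185.8 CPM), nspd-10 (386.4, 42.8 and 170.3 CPM), nspd-5 (350.3, 41.5 and 175.6 CPM) and nspd-1 (280.6, 33.3 and 139.1 CPM). The lowest with a count was nspd-9, at 20.3, 2.57 and 8.17 CPM. No count was found for nspd-8, which allows a level of up to 0.207, 0.193 and 0.18 CPM in the 3 libraries (3 counts of the total).

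Per length of annotated exons, the msp genes stood further above the ssq and spch genes than in CPM, where the family medians of the mean were 421.7, 402.3 and 240.9 CPM. The median of mean CPM per kilobase was 1098 for msp, 530.9 for nspd, 365.2 for ssq, 320.4 for spch, 164 for msd and 137.7 for ssp genes, against 0.548 for all protein-coding genes. These lengths are not on the same footing. The 54 members with a single exon have no untranslated region in the annotation, so their length is a coding length, while all ssq and spch genes and ssp-32, ssp-36 and ssp-37 have such regions. If counts of the former include reads that reach into untranslated regions, their levels per length are set too high beside those of the latter. The annotation used for counting is not given, so this was not tested.

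Nearly all members differed between the libraries in the same direction. Of the 60 members with a mean of at least 1 CPM, 59 (98.3%) were lowest in replicate 2, against 39.4% of the 9428 protein-coding genes of that level. The same 59 were highest in replicate 1, against 27.3% of those genes, and so followed the order of replicate 1 above 3 above 2, against 19.6%. A ratio of replicate 1 to replicate 2 of at least 4, in CPM + 1, was found for 57 members (95%), against 9.73%. Apart from ssp-37, the members of that level below 4 were msp-58 and ssp-36, with means of 2.1 and 2.48 CPM, where the added 1 compresses ratios. The mean is taken over the same libraries, so a gene can reach 1 CPM in the mean through replicate 1 alone. At least 1 CPM in every library was found for 56 of the 60 members and 8194 of the 9428 genes. That sperm genes differ between these libraries was known before the members were chosen, so these counts describe the size of the difference and are no independent evidence of it.

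The median log2 ratio of replicate 1 to replicate 2 was 3.04, which is 8.23-fold, while it was -0.02 for all protein-coding genes of at least 1 CPM. From replicate 3 to replicate 2 the median was 1.54 (2.9-fold) against 0.11, and from replicate 1 to replicate 3 it was 1.4 (2.64-fold) against -0.07. Apart from ssp-37, single members of that level spanned log2 ratios of 1.64 to 3.72 from replicate 1 to replicate 2. They spanned 0.58 to 2.77 from replicate 3 to replicate 2 and 0.28 to 2.2 from replicate 1 to replicate 3. Members largely kept their order while their level moved. Across the 63 members with a count, Spearman's rho between libraries was 0.977 for replicates 1 and 2, 0.987 for replicates 1 and 3 and 0.956 for replicates 2 and 3. These are correlations across genes, which share libraries and partly share reads, and are given as a description.

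**Figure D2:**
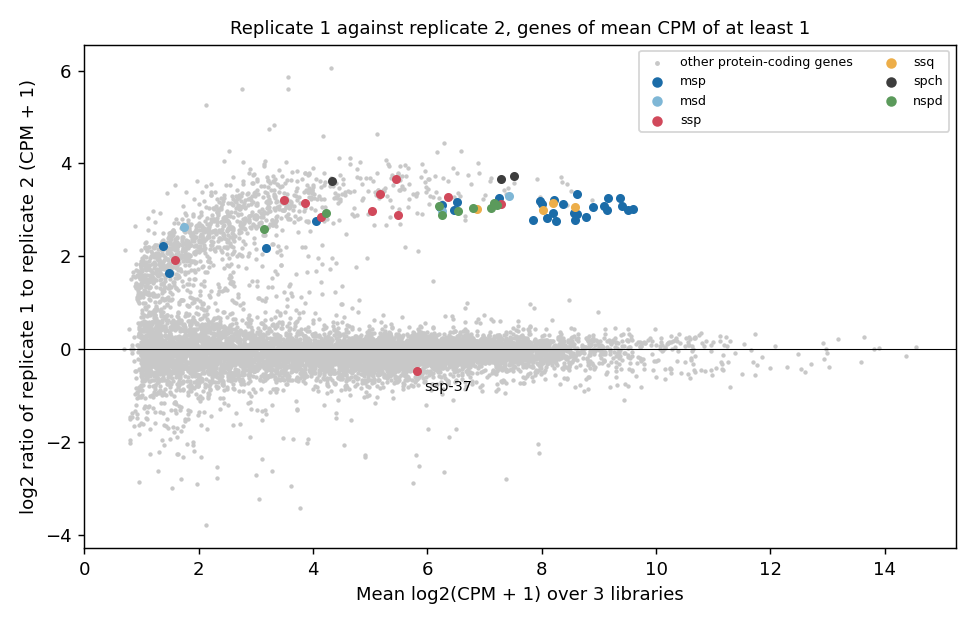
Log2 ratio of replicate 1 to replicate 2 (CPM + 1) against the mean log2(CPM + 1) over the 3 libraries, for the 9428 protein-coding genes of at least 1 CPM; coloured points are members by family and grey points other genes. Members lie in a band near a log2 ratio of 3, except ssp-37 below 0.

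The families did not move by quite the same factor. The median ratio of replicate 1 to replicate 2, in CPM + 1, was 8.04 for msp, 7.86 for msd, 8.68 for ssp, 8.18 for ssq, 8.2 for nspd and 12.7 for spch genes. From replicate 1 to replicate 3 the medians were 2.95, 2.88, 2.41, 3.37, 2.09 and 2.04 in the same order. For nspd the 9 detected genes spanned log2 ratios of 0.91 to 1.23 from replicate 1 to replicate 3, a narrower range than the 1.06 to 2.2 of the 28 msp genes of 384 bases. Relative to msp genes, spch and nspd transcripts were thus a larger part of the members in replicate 3, where nspd genes made up 7.92% of member counts, than in replicate 2, with 5.47%.

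Members were concentrated on the genome. Chromosome IV held 36 of 64 (56.2%) against 16.4% of annotated protein-coding genes, and chromosome II held 15 (23.4%) against 17.3%. Chromosome I held 9 members, chromosomes III and V held 2 each, and the X chromosome held 0 against 13.6% of protein-coding genes. All 31 msp genes lay on chromosomes II and IV, 13 and 18 respectively. Joining members less than 500 kb apart gave 12 members between positions 4785898 and 5200180 and 3 between 5797065 and 5810330 on chromosome II. On chromosome IV, 15 lay between 4994371 and 5316906, called the left group here, and 20 between 9689015 and 10738602, called the right group, with ssq-3 between them.

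The ratio of replicate 1 to replicate 3 followed this grouping within chromosome IV for the msp genes of 384 bases. In the left group the 8 genes had ratios from 3.28 (msp-59, 95% interval 3.22 to 3.35) to 4.61 (msp-65, 4.41 to 4.81). In the right group the 9 genes had ratios from 2.09 (msp-10, 1.97 to 2.21) to 2.87 (msp-81, 2.78 to 2.96). The 2 groups did not overlap, and their medians in log2(CPM + 1) were 1.92 and 1.39. The larger chromosome II group of 8 such genes lay between, from 2.52 (msp-40) to 3.58 (msp-45), and overlapped both. In the smaller chromosome II group the 3 such genes had 2.52 (msp-63), 3.64 (msp-142) and 4.35 (msp-64), and so reached into both ranges. Near-identical copies may share reads, so the genes of a group are not independent values.

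Other families in the same groups were mixed. In the left group ssq-2 and ssq-4 had ratios of 4.16 and 3.46, and ssp-9 and ssp-11 had 3.59 and 3.25. In the right group msd-3 had 3.54, ssq-1 had 3.3, msd-2 had 2.91, ssp-10 had 2.41, spch-1 had 2.25 and ssp-34 had 2.06. The nspd genes showed no such contrast, with 2.1 for nspd-3 and 1.91 for nspd-6 in the left group, and 2.1 for nspd-2 and 2.36 for nspd-7 in the right. Non-member genes of at least 4-fold between replicates 1 and 2 had median ratios of replicate 1 to replicate 3, in CPM + 1, of 2.25 for 19 genes within the left group and 1.89 for 36 genes within the right group. From replicate 3 to replicate 2 the msp genes of 384 bases in the same groups did not overlap either, with log2 ratios in CPM + 1 of 0.58 to 1.30 (median 0.91) in the left group and 1.39 to 2.01 (median 1.71) in the right. This ratio shares replicate 3 with the first and is no separate evidence. From replicate 1 to replicate 2 the groups overlapped, at 2.75 to 3.01 and 2.77 to 3.34. The groups were formed after the values had been seen, so no test was made.

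**Figure D3:**
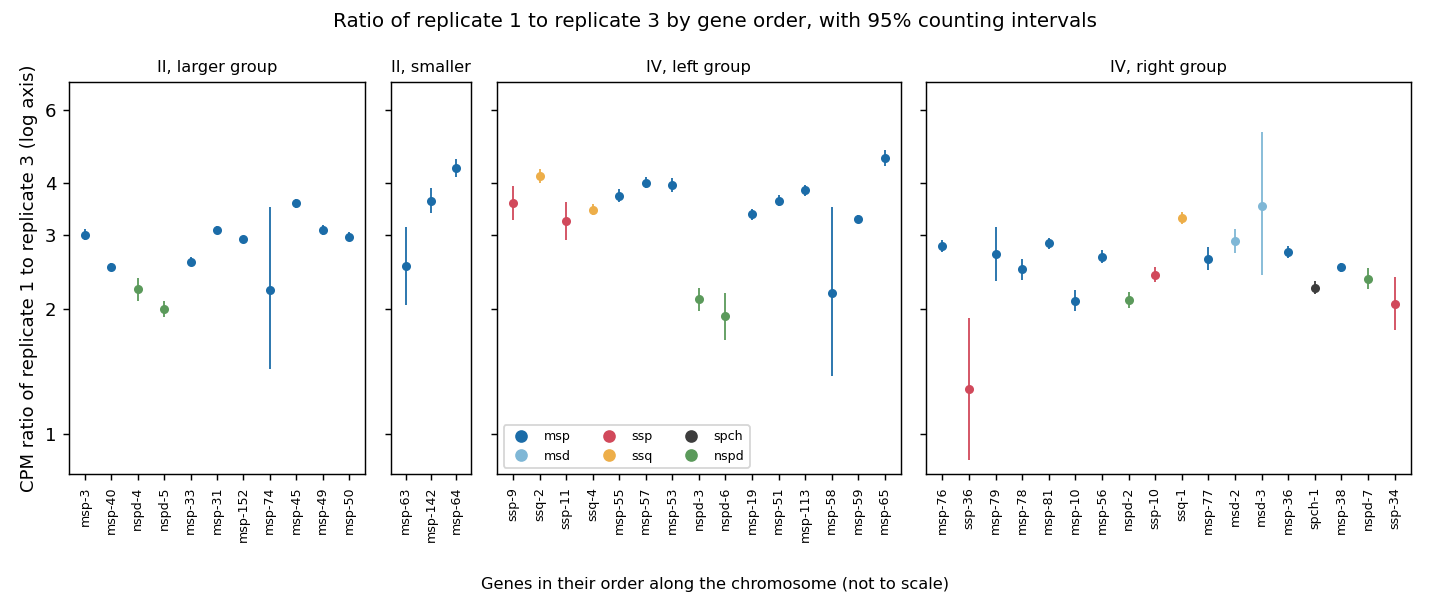
Ratio of CPM in replicate 1 to that in replicate 3 (log axis) for members of at least 1 CPM, in their order along chromosomes II and IV and coloured by family; bars are 95% exact binomial intervals of counting error. The msp genes of the left group on chromosome IV lie above those of the right group, msp-58 excepted, and nspd genes lie near 2 in each group.

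Genes beside the members also passed the 4-fold ratio more often than the 9.73% of all protein-coding genes of at least 1 CPM. Of 62 nearest protein-coding neighbours with a mean of at least 1 CPM, 32 had a ratio of replicate 1 to replicate 2 of at least 4, with a median of 4.03-fold. Of 295 such non-member genes lying anywhere inside the position groups, 79 did so, with a median of 1.06-fold. The filter on the mean can be passed through 1 high library. At least 1 CPM in every library was found for 42 of the 62 and 244 of the 295. Members were 57 of the 917 protein-coding genes past the 4-fold ratio, or 6.22% of them, so most genes that differed this way between the libraries were of other families. Of the 860 non-members among the 917, 487 had at least 1 CPM in every library.

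Most other sperm genes differed between the libraries in the same direction as the members. On a list of 36 sperm genes outside the 6 families, 31 had a mean of at least 1 CPM. Of these, 27 were lowest in replicate 2, against 39.4% of protein-coding genes of that level. A ratio of replicate 1 to replicate 2 of at least 4 was found for 17 of the 31, against 9.73%. The median ratio was 5.18-fold. On the whole list, 22 genes had at least 1 CPM in every library. The 4 of the 31 that were not lowest in replicate 2 were spe-6, spe-39, spe-48 and zipt-7.1, of which spe-48 had 105.5, 115.8 and 126.6 CPM. The highest were gsp-3, a sperm-enriched PP1 phosphatase (353.4, 17.4 and 135.7 CPM), spe-18, whose product helps MSP assemble in spermatocytes (304.8, 19.5 and 104 CPM), and smz-1 (240.2, 17.9 and 99.6 CPM). All 3 were lowest in replicate 2. The genes gsp-3 and gsp-4 are close copies, so their counts are uncertain as well. The lowest of the list was spe-29, at 0.42 CPM in the mean.

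As a summed list, genes that control the choice of the sperm fate were nearly level between libraries, though elt-1 and fog-3 were not. Of 15, 14 were detected, and the list summed to 1544, 1542 and 1750 CPM. The transcription factor gene spe-44, which drives sperm genes, had 25.8, 27.2 and 35.1 CPM, and the GATA factor gene elt-1, which acts at msp genes, had 7.71, 4.18 and 3.36 CPM. The sperm fate genes fog-1 and fog-3 had 18, 25.7 and 23.7 CPM and 1.45, 0.128 and 1.44 CPM. Only fog-3 of these 15 had a ratio of replicate 1 to replicate 2 of at least 2 in CPM + 1, and it rested on 21 and 2 counts. The genes through which the gonad responds to MSP, 18 of which were matched and all detected, summed to between 2202 and 2396 CPM. They were led by oma-2 and oma-1, which oocytes need to mature, and lin-41, at 477.6 ± 21.4, 325.6 ± 18.5 and 254.6 ± 24.9 CPM (SD, n = 3). The MSP receptor gene vab-1 had 146.6 ± 8.56 CPM, and the lowest was the adenylate cyclase gene acy-4 at 2.93 CPM.

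Markers of other cell types also differed between the libraries, and their part in the members' levels was not tested. Of 14 cuticle collagens, 9 had a mean of at least 1 CPM. Of these, 8 were lowest in replicate 2, against 39.4% of protein-coding genes of that level. The list summed to 1299, 92.9 and 279.8 CPM. The order of the members was followed by 6 of the 9, led by col-140, col-124 and col-119, against 19.6% of those genes. The other 3, dpy-13, dpy-17 and sqt-3, were highest in replicate 3, where they had 9.07, 13.9 and 4.74 CPM. Among these collagens rol-6 was at 0 in replicates 1 and 2, dpy-7 and bli-1 in replicates 2 and 3, and col-10 and dpy-13 in replicate 2. Muscle markers, 15 genes, summed to 897.7, 558.8 and 548.9 CPM, with myo-2 at 0 in replicates 1 and 2, myo-1 in replicate 1 and tnt-3 in replicate 2. The 15 intestine markers summed to 508.1, 2452 and 720.7 CPM, a sum carried by the yolk protein genes, led by vit-6, vit-2 and vit-5, which were highest in replicate 2. The list was mixed outside them. Of its 13 genes with a mean of at least 1 CPM, 3 were lowest in replicate 2, against 39.4% of such protein-coding genes. Highest in replicate 1 were 3 of the 13, against 27.3%, among them asp-1 with 46.6, 23.1 and 8.89 CPM. Besides the yolk genes, mtl-1, mtl-2 and pho-1 were highest in replicate 2. They had 0.34, 5.46 and 0.24 CPM, 9.78, 40.5 and 6.72 CPM, and 0.69, 1.99 and 0.42 CPM in that order. The gene elt-2, a defining factor of that tissue, had 2, 0 and 3 counts and so was hardly covered in any library. The 13 matched sheath and spermatheca markers summed to 1137, 988.8 and 1262 CPM, led by fln-1, let-502 and ect-2, with ipp-5 the lowest and 0 of them without a count. This list mixes sheath with spermatheca genes, and whether the libraries held different amounts of spermatheca, where sperm are stored, was not tested. The members summed to between 4499 and 37213 CPM. Oocyte and eggshell genes summed to 36924.5, 46522 and 41856 CPM, and the 12 genes of the mitochondrial genome to 9136, 13954 and 6592 CPM.

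**Figure D4:**
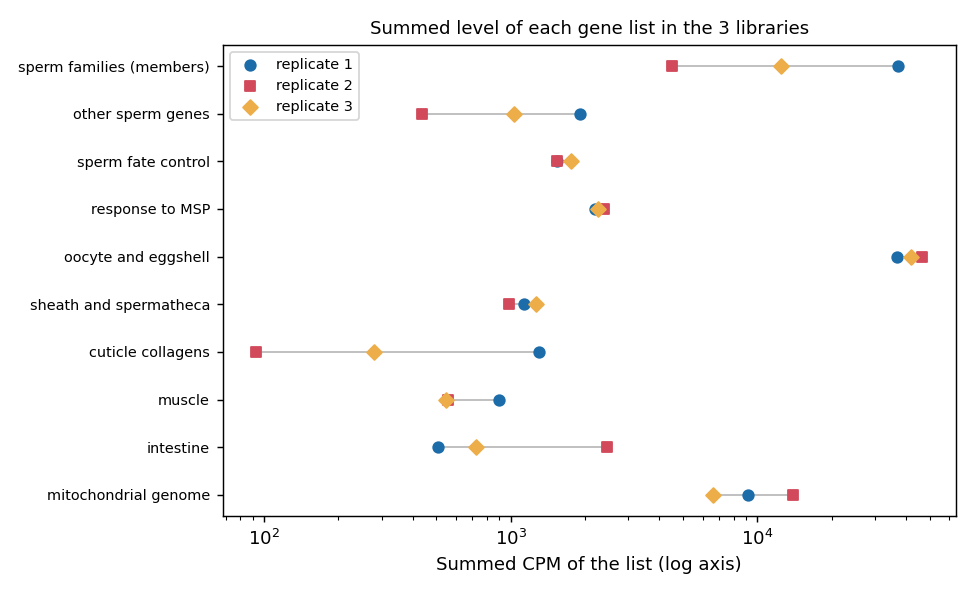
Summed CPM of the members and of each gene list in the 3 libraries, on a log axis. Members, other sperm genes and cuticle collagens are lowest in replicate 2 and highest in replicate 1, while the intestine sum is highest in replicate 2 and the sperm fate, MSP response and spermatheca lists lie close together.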

How the data were processed

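RNA of dissected wild-type germlines was sequenced in 3 libraries. Per the labels' protocols, libraries were made with a SMART-Seq v4 kit for ultra low input RNA. The authors deposited whole-number counts, not normalized, with 1 row for each gene. The submitters' processing notes name STAR, featureCounts and WBcel235. Not given in the sources used here are tool versions, the gene annotation, whether strand was used and how reads matching several copies were treated.

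Counts were scaled to CPM on each column total, and ratios use CPM + 1 unless given with a counting interval, which uses plain CPM. Positions and exon lengths came from the Ensembl release 115 annotation of WBcel235, in which all 64 members were found. Of 163 list genes, 161 were matched, 8 of them by their current symbol. The members and lists were chosen with earlier results of these data known. No test across groups was possible. Alternatives used edgeR 4.0.16 (TMM) and DESeq2 1.42.0 size factors. The ratio and its interval were checked on simulated counts for replicate 1 against replicate 2 over 20362 genes. There, 94 of 100 intervals held the true fold of 8 and the median recovered was 7.91. The simulated counts were independent Poisson draws, without PCR copies or reads shared between gene copies. This check therefore covers the arithmetic and not the width of the intervals in the real libraries. The genes named are all members of families of at most 5 genes. In larger families they are the 4 highest, the lowest with a count and the 2 with the widest ratio between libraries among those of at least 10 CPM. From each list they are the 3 highest and the lowest, and any gene of the sperm fate list. Others were named after their values were seen.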

Additional observations from a re-analysis of the deposited data

Results flagged for a closer look

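Pseudogenes with symbols of these families, which were outside the members, also had counts above the 3 counts that a value of 0 allows. The pseudogene msp-42 had 315, 0 and 188 counts in replicates 1, 2 and 3, and msp-71 had 436, 1 and 193 counts. Both lie on chromosome II within the larger group of members, and both were near or at 0 in replicate 2. The pseudogene msp-52 had 52, 4 and 11 counts, and msp-37 had 5 counts in replicate 3. No explanation was tested.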

How the results depend on the processing

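Scaling on the protein-coding total, on TMM or DESeq2 sizes, or on the total without rRNA and mitochondrial genes left 56 members detected and 59 lowest in replicate 2 each time, and also 59 when scaled on the oocyte and eggshell list. Over all 12 alternatives the detected members ranged from 47 (10 CPM in every library) to 60 (2 of 3 libraries, or without replicate 2). Those lowest in replicate 2 ranged from 54 (mean of at least 10 CPM) to 62 (any count). The 62 include msp-32, which tied at 0 in replicates 2 and 3. The median log2 ratio of replicate 1 to replicate 2 ranged from 2.99 (TMM) to 3.37 (oocyte list) over 10 alternatives, pseudocounts of 0.5 and 0.1 and the omission of ssp-37 included. The median level ranged from 6.24 without replicate 1 to 7.8 without replicate 2, and the member share of counts from 0.846% without replicate 1 to 2.48% without replicate 2. The difference of 0.53 in log2 ratio between the chromosome IV groups of msp genes ranged from 0.51 to 0.53 under other pseudocounts and gaps. The oocyte list scaling, the omission of ssp-37 and the chromosome IV alternatives were all chosen after seeing the data. No paired analysis was possible because there is a single group. Shares of unique sequence windows, protein identities and promoter motifs were not run, since no genome, protein or promoter sequence was used here, nor were the alternatives that rest on them. Depth limits what can be said of msp-32, msd-1 and nspd-8, which had at most 2 counts in a library.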
